A study of Mus musculus with 4 samples.

Results

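Pax6 and 7 genes that lie beside it on mouse chromosome 2 are described here: the noncoding RNA gene Paupar and the protein-coding genes Elp4, Immp1l, Dnajc24, Mpped2, Rcn1 and Wt1. These 8 genes were taken by name from a table of 22770 genes, and all 8 were found. RNA was sequenced from dissected cortex of mouse embryos at embryonic day 16.5 in 4 libraries, 2 from wild-type littermates and 2 from Pax6 sey/sey mutants. All animals were on a mixed genetic background (C57BL/6J, 129S6, CD1), and no other allele or treatment is named. Sey (small eye) is a germline point mutation that creates a premature stop codon in Pax6, so every cell carries it and a transcript can still be made and counted. The level of Pax6 RNA therefore does not check the genotype label. The mutants are homozygous for the mutated gene and for whatever sequence was inherited with it, so effects of Sey and of linked strain differences cannot be told apart for the genes around it.

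PAX6 is a transcription factor with a paired domain and a homeodomain, made in radial glia, the progenitors of the cortex, where it favours the production of glutamatergic neurons and keeps ventral genes off. PAX6 is known to act on its own gene, and several long-range enhancers of Pax6 lie within introns of Elp4, so the neighbours share a stretch of regulatory DNA. Paupar is a nuclear noncoding RNA transcribed away from Pax6, known to bind PAX6 protein and the corepressor TRIM28. Elp4, Immp1l, Dnajc24 and Rcn1 have household roles, Mpped2 is a brain gene and Wt1 acts in kidney and gonad. Human deletions that remove this region together with WT1 and PAX6 cause the WAGR syndrome.

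In GRCm38, Pax6 (ENSMUSG00000027168) lies on the plus strand at chr2:105668900-105697364 and Paupar (ENSMUSG00000102424), a single-exon transcript of 3482 bases on the minus strand, at chr2:105657862-105661343, its start 7.6 kb before that of Pax6. A longer minus-strand gene, Pax6os1 (ENSMUSG00000086029, chr2:105536080-105670330), spans Paupar within an intron and reaches into Pax6, but shares 0 exon bases with either. Toward higher coordinates follow Elp4 (chr2:105701027-105904564, minus), Immp1l (chr2:105904638-105965558, plus), Dnajc24 (chr2:105966709-106003549, minus) and Mpped2 (chr2:106693269-106868356, plus). Toward lower coordinates lie Rcn1 (chr2:105386291-105399319, minus) and Wt1 (chr2:105126529-105173616, plus). All values cover a gene's annotated exons as a whole. Of the 8 genes, Dnajc24 alone shares exon bases with another annotated gene, 84 bases (6.14% of its exons) with Dcdc5 on the other strand, and strand use in counting is not stated.

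Promoter windows are shown for Pax6 and Mpped2, whose RNA rose, and for the pair Elp4 and Immp1l, which start back to back. Each runs 5′ to 3′ from 250 bases before to 50 after a start annotated in RefSeq on GRCm38.p6, and 5 of the 8 genes had such a window. Pax6 has 2 such starts 13.6 kb apart, at chr2:105668646-105668945 and chr2:105682213-105682512 on the plus strand, and the first Mpped2 window is chr2:106692931-106693230 on the plus strand. In these first 3 sequences capitals mark the 50 bases from the annotated start on.
Pax6, first start: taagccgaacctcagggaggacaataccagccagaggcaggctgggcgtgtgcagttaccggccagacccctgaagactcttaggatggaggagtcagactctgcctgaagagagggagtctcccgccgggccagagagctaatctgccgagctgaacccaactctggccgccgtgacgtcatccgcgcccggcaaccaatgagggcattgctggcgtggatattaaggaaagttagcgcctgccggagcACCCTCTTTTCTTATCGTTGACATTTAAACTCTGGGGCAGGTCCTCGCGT
Pax6, second start: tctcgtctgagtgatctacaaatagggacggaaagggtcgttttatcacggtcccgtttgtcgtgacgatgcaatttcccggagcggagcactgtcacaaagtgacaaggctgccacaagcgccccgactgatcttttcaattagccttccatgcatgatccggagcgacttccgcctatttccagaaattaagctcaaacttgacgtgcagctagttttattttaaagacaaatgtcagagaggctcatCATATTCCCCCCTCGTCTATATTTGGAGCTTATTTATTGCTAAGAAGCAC
Mpped2, first start: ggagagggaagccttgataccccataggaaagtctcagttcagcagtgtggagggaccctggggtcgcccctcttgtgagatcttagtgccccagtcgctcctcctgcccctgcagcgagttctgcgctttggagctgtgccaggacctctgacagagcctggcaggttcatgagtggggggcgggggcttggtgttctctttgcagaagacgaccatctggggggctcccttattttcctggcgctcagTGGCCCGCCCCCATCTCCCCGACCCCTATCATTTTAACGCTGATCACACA
The Immp1l window is chr2:105904388-105904687 on the plus strand. It is shown because 173 of its bases (chr2:105904515-105904687) also lie in the window of Elp4, which is read the other way from a start 74 bases off. Capitals here mark CCAAT on either strand.
Immp1l: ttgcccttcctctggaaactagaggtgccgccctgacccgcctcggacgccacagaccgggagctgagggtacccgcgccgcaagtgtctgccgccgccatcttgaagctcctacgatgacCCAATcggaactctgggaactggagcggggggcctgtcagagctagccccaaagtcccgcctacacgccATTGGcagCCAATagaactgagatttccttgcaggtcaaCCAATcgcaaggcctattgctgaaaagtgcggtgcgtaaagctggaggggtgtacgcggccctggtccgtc
CCAAT, searched on both strands, occurred 4 times in the Immp1l window, 3 of them within the shared stretch, once in the first Pax6 window and 0 times in the second Pax6 window and in the Mpped2 windows. It was present in 37.4% of 32851 windows of the same length. The GC content was 58.7% and 46.3% in the Pax6 windows, 60.0% in the Mpped2 window shown and 61.3% in that of Immp1l, against a median of 52.7%. The table gives 1 value per gene, so the starts of Pax6 cannot be told apart in what follows.

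Values are FPKM, fragments scaled by exon length and by the library's mapped fragments, as the authors deposited them. Column totals lay between 579698 and 593256 FPKM, and 13682 to 13875 genes reached 1 FPKM in each library. Markers of cortical neurons were high in all libraries (8 of 8 tested; Tubb3 782 to 860 FPKM), and choroid plexus markers were at 1.56 FPKM or less. Mutant library 1 stood apart in Xist (350 FPKM against 0.0788 to 0.224 in the others), and in the summed level of 6 meningeal fibroblast genes (28.1 FPKM against 3.26 and 4.63 in the wild types and 6.74 in mutant library 2). Genes with at least 0.5 FPKM in 2 libraries were tested (15399 genes, among them 7 of the 8; Wt1 lay below). Fold changes are mutant minus wild type on the scale log2(FPKM + 0.5), and "rose" means an adjusted p under 0.05 in limma (Benjamini-Hochberg, adjusted over every gene tested). Nothing in the labels says that the libraries of a genotype came from separate embryos. Xist, an RNA of female cells, differed between mutant libraries 1 and 2, so these did not come from the same embryo. Sex was not part of the fit. The wild-type libraries were both low in Xist, which leaves their origin unknown. The p-values measure the spread between these libraries, which may be technical in part.

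Of the 7 tested genes, Pax6, Paupar and Mpped2 rose in the mutants and 0 fell, while Elp4, Immp1l, Dnajc24 and Rcn1 did not pass. Over all tested genes 2.02% were called higher and 1.46% lower. In 6 of the 7 genes both mutants lay above both wild types, which held for 25.8% of all tested genes. Paupar, counted in both, reached the filter only in the mutant libraries, so it could only come out higher. The median change of the 7 was 0.24, beside 0.00 over all genes tested.

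**Figure D1:**
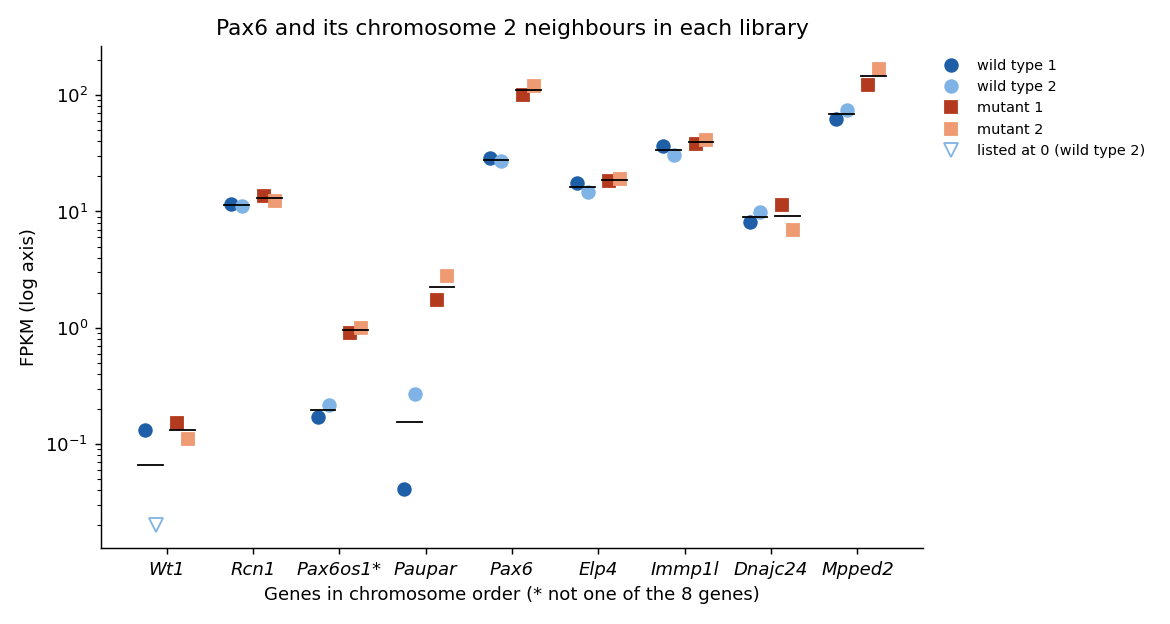
FPKM on a log axis of the 8 genes and of the antisense gene Pax6os1 in each of the 4 libraries, in chromosome order; circles are wild types, squares Pax6 mutants, black lines the group means (n = 2), and the open triangle a value listed at 0. Pax6 (28.8 and 27.0 against 101 and 120 FPKM) and Mpped2 (62.1 and 75.2 against 123 and 169) are separated, while Dnajc24 overlaps between genotypes.

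Pax6, the mutated gene itself, was at 28.8 and 27.0 FPKM in the wild-type libraries and at 101 and 120 FPKM in the mutant libraries. Both mutants lay far above both wild types, and the gap between the libraries of a genotype was 6.52% of the mean in wild types and 17.7% in mutants. The group mean went from 27.9 ± 1.29 to 111 ± 13.8 FPKM (SD, n = 2), a ratio of 3.96. The log2 fold change was 1.96 (SE 0.10, 95% confidence interval 1.70 to 2.23, limma adjusted p = 0.00466), which ranked 65 of 15399 from the top. By level, Pax6 moved from the 75.7th to the 95.6th percentile of tested genes. The adjusted p was 0.0790 without wild-type library 1 and 0.0820 without wild-type library 2, with log2 fold changes of 2.01 and 1.91. With 2 against 2 libraries an exact permutation test (two-sided) cannot go below p = 0.333, which Pax6 reached. In the authors' deposited table the ratio was 3.96 with p = 3.41e-13.

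In tissue RNA, more cells that express a gene and more RNA per cell cannot be told apart. A list of 10 radial glia markers was therefore read beside Pax6. It had a median log2 fold change of 0.00, and its summed level was 1120 and 968 FPKM in the wild-type libraries and 950 and 941 in the mutants. Most of that sum was Fabp7, at 719 and 540 FPKM in the wild-type libraries and 526 and 525 in the mutants. Fabp7 is also among the genes known to depend on Pax6, so the sum is no independent measure of radial glia. The progenitor factor Sox2 rose (25.8 and 22.9 to 78.5 and 93.1 FPKM), the matrix protein gene Tnc fell (30.3 and 29.5 to 12.7 and 8.87), and the other 8 did not pass. Called genes made up 3.48% of all genes tested. The part of these markers in the Pax6 result was not tested.

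Paupar, the noncoding RNA beside Pax6, was close to the detection limit in wild-type cortex and higher in the mutants. It was at 0.0414 and 0.268 FPKM in the wild-type libraries and at 1.73 and 2.76 FPKM in the mutant libraries, with no overlap between genotypes. The log2 fold change was 2.06 (SE 0.33, 95% confidence interval 1.22 to 2.91, limma adjusted p = 0.0454). On this transcript of 3482 bases 1 fragment was worth 0.0279 to 0.0408 FPKM, so the wild-type values stand for about 1.3 and 6.6 fragments and the mutant values for about 47.0 and 99.1. At such depth no ratio is given, and the fitted change depends on the pseudocount: 3.33 with 0.1 and 1.48 with 1. The call is close to the threshold. It was lost without any 1 of the 4 libraries (adjusted p 0.209 and 0.202 without wild-type library 1 and 2, 0.120 and 0.216 without mutant library 1 and 2), with a pseudocount of 0.1 (0.0680), without the filter (0.101) and without the mean-variance trend (0.0855). The authors' deposited table gives Paupar p = 0.372.

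The longer antisense gene Pax6os1 was also higher in both mutants, at 0.904 and 0.996 FPKM against 0.171 and 0.219, but did not pass (log2 fold change 1.06, adjusted p = 0.114). Its RNA is annotated on the same strand as Paupar and opposite to Pax6. Paupar stayed far below Pax6, whose FPKM was 696 and 101 times that of Paupar in the wild-type libraries and 58.3 and 43.5 times in the mutant ones; the wild-type ratios rest on the few Paupar fragments given above. Reads from opposite strands at this locus can be separated only as far as exons do not overlap, since strand use is not stated. The authors' loci put Pax6, Paupar and Pax6os1 in 1 unit, and how fragments were split among them was not tested.

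Mpped2, which codes for a metallophosphoesterase abundant in brain, starts 1024.4 kb from Pax6 and was the highest of the 8 genes in every library. It was at 62.1 and 75.2 FPKM in the wild-type libraries and at 123 and 169 FPKM in the mutant libraries. The genotypes did not overlap, and mutant library 2 was the highest. The mean went from 68.6 ± 9.28 to 146 ± 32.6 FPKM (SD, n = 2), a ratio of 2.12 and a log2 fold change of 1.07 (SE 0.18, 95% confidence interval 0.62 to 1.52, limma adjusted p = 0.0496). This p is at the threshold. The call was lost without wild-type library 1 (0.242) or 2 (0.213), without mutant library 1 (0.0789) or 2 (0.165), with a pseudocount of 0.1 (0.0521), without the filter (0.123) and without the trend (0.134), with log2 fold changes between 0.84 and 1.30. In the authors' deposited table Mpped2 had a ratio of 2.12 and p = 7.67e-08, and it and Pax6 were the 2 of the 8 genes with a deposited p under 0.05, beside 1.83% of all 22770 genes.

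The nearest relative of Mpped2 moved the other way. Mpped1, which codes for the other brain metallophosphoesterase of this family and lies on another chromosome, was at 357 and 355 FPKM in the wild-type libraries and at 229 and 212 FPKM in the mutant libraries. Its log2 fold change was -0.69 (limma adjusted p = 0.0154). Summed, both genes were at 419 and 430 FPKM in wild types and 351 and 381 FPKM in mutants, so the family total was lower in both mutants. Of 8 markers of cortical neurons 4 fell, such as Neurod2, Neurod6 and Tbr1, and 0 rose. Over all tested genes 1.46% were called lower and 2.02% higher. The summed level of the 8 markers was 2930 FPKM in each wild type and 2340 and 2250 FPKM in the mutant libraries. Their part in the values of both Mpped genes was not tested.

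Elp4 and Immp1l, the pair with the shared start region next to Pax6, did not pass the test. Elp4, a subunit of the Elongator complex that modifies transfer RNA, was at 17.4 and 14.7 FPKM in the wild-type libraries and 18.4 and 18.9 FPKM in the mutant libraries. Immp1l, a catalytic subunit of the mitochondrial inner membrane peptidase, was at 36.6 and 30.8 FPKM and at 38.1 and 41.2 FPKM. In both genes the order of the libraries was the same, with wild-type library 2 lowest and mutant library 2 highest. Both mutants lay above both wild types, which also held for 25.8% of all tested genes. The log2 fold change was 0.21 for Elp4 (SE 0.11, adjusted p = 0.384) and 0.24 for Immp1l (SE 0.11, adjusted p = 0.309). The 95% confidence intervals of the fold on this scale, 0.948 to 1.41 and 0.976 to 1.43, leave out a 2-fold rise.

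Dnajc24, whose product takes part in diphthamide synthesis on elongation factor 2, was at 8.08 and 9.87 FPKM in the wild-type libraries and at 11.4 and 6.93 FPKM in the mutant libraries. The mutants lay on both sides of the wild types, and the gap between them was 48.8% of their mean. The log2 fold change was -0.0036 (SE 0.25, adjusted p = 0.995), with an interval from 0.635-fold to 1.57-fold. Its sign followed the library left out: -0.34 without mutant library 1 and 0.34 without mutant library 2. Between Dnajc24 and Mpped2 lies Dcdc5, annotated as a pseudogene, at 0.131 and 0.0440 FPKM in wild types and 0.547 and 0.504 FPKM in mutants (log2 fold change 0.81, adjusted p = 0.221).

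On the other side, Rcn1, a calcium-binding protein of the endoplasmic reticulum, was at 11.5 and 11.1 FPKM in the wild-type libraries and 13.7 and 12.4 FPKM in the mutant libraries. Both mutants were higher, as in 25.8% of all tested genes. The log2 fold change of 0.19 did not pass (SE 0.11, limma adjusted p = 0.395, interval 0.947-fold to 1.38-fold). Mutant library 1, the higher one, was also the library with the most meningeal RNA, and without it the log2 fold change of Rcn1 was 0.12. The part of the meninges in this value was not tested.

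Wt1, a zinc finger factor of kidney, gonad and mesothelium, was at 0.132 FPKM and listed at 0 in the 2 wild-type libraries, against 0.153 and 0.112 FPKM in the mutant ones. All 4 values were below the filter and the genotypes overlapped, so no fold is given. Markers of podocytes and mesothelium were also low: Nphs1 and Upk3b did not exceed 0.180 FPKM in any library, while Podxl, which vessels also express, was at 8.50 to 10.5 FPKM.

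The order of levels in wild-type cortex was Mpped2, Immp1l, Pax6, Elp4, Rcn1, Dnajc24, Paupar and Wt1. In wild types Immp1l (30.8 and 36.6 FPKM) and Pax6 (27.0 and 28.8) were neighbours that did not overlap, and Paupar and Wt1 did overlap. In the mutants Pax6 stood second, between Mpped2 and Immp1l. Set against its neighbours within each library, Pax6 was 1.65 and 1.83 times Elp4 in wild types and 5.49 and 6.37 times in mutants. It was 0.789 and 0.878 times Immp1l against 2.64 and 2.92, and 2.50 and 2.43 times Rcn1 against 7.36 and 9.72. These ratios do not depend on scaling between libraries. Relative to Mpped2 the shift was smaller, from 0.465 and 0.359 to 0.822 and 0.713. All 7 ratios use the same Pax6 values, whose rise is given above, so they are not separate results. The test used ratios of FPKM + 0.5, which lets low genes enter. In exact permutation tests (two-sided) 6 of the 7 ratios reached p = 0.333, the smallest possible (0.389 after adjustment over 7), and that to Paupar gave p = 1, although without the added 0.5 its ratios did not overlap between genotypes.

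**Figure D2:**
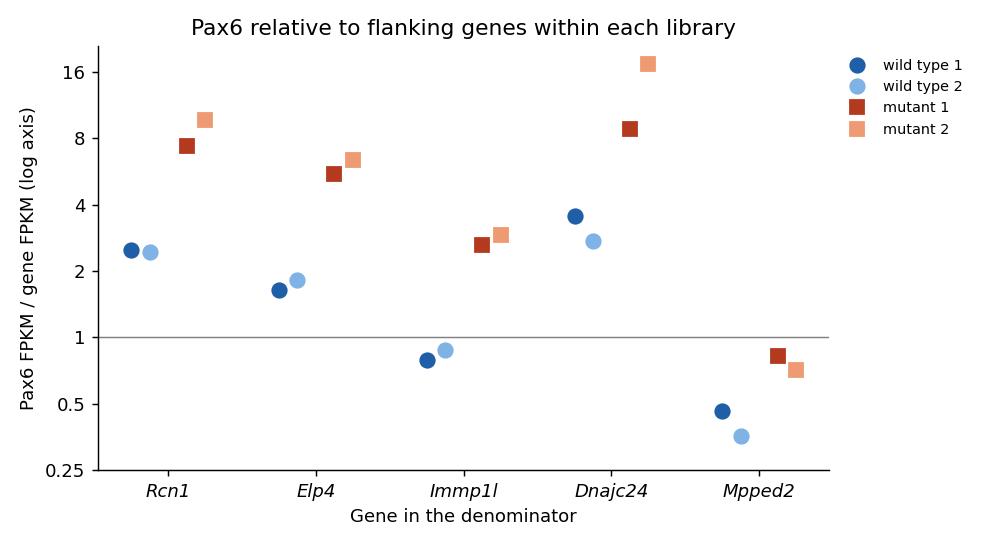
Pax6 FPKM divided by the FPKM of each of 5 flanking genes, per library, on a log axis; circles are wild types, squares mutants, and the grey line marks equal levels. In each of the 5 ratios both mutants lie above both wild types, and only the ratio to Mpped2 stays below 1 in all 4 libraries.

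The surroundings were followed further out to ask how far a difference reached along the chromosome. Within 5 Mb of the Pax6 start 68 genes were in the table and 46 were tested. Of these 3 were called, all higher, beside 3.48% called over all genes, and they were Pax6, Paupar and Mpped2, so 0 of the 39 tested genes outside the 8 passed, with 9 at an unadjusted p under 0.05. Over all tested genes 19.5% were at that level, a share close to 9 of 39. The median log2 fold change of those 39 was 0.02, with 10 higher and 7 lower in both mutants, beside 25.8% of all tested genes in each direction. Pax6os1 and Dcdc5, among the higher ones, reached the filter only in the mutant libraries. Over chromosome 2 as a whole 62 of 1216 tested genes were called (5.1%), 44 higher and 18 lower. Over all tested genes 2.02% were called higher and 1.46% lower.

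Within 1 Mb, 14 genes were tested and 12 had a fold change above 0. Both mutants were above both wild types in 8 of the 14 and below in 0, against 25.8% of all tested genes in each direction. Pax6 itself is counted there. Paupar, Pax6os1 and Dcdc5 reached the filter only in the mutant libraries, so they could count only as higher. These counts therefore do not measure a difference shared by the region. Outside the 8, the tested genes whose lowest coordinate lay nearest to that of Pax6 were the pseudogene Rpl10-ps1 toward lower coordinates (64.4 and 45.5 FPKM in wild types, 57.3 and 60.0 in mutants, log2 fold change 0.11), whose fragments may belong to copies of Rpl10, and Dcdc5 toward higher coordinates. Past the outer genes, Eif3m, a translation factor subunit gene beyond Wt1, had a log2 fold change of 0.02, and Arl14ep, beyond Mpped2, one of -0.09, and neither passed.

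**Figure D3:**
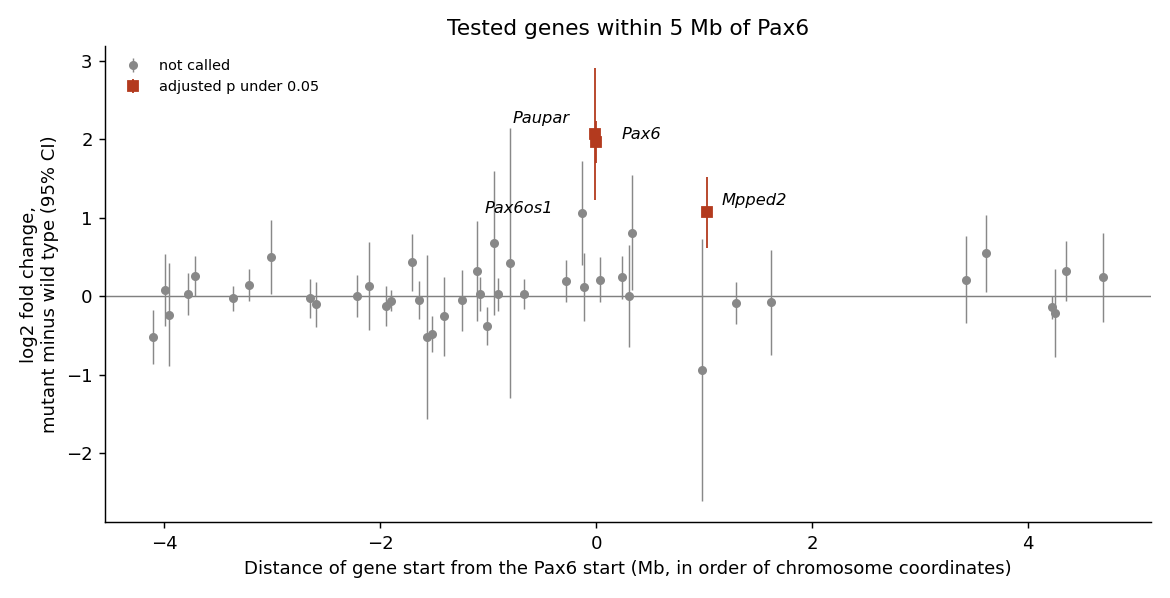
Log2 fold change of FPKM + 0.5 (mutant minus wild type) of the 46 tested genes within 5 Mb of Pax6 against the distance of their start from that of Pax6 in Mb; bars are 95% confidence intervals from limma and red squares passed the threshold. Pax6 and Paupar at 0 and Mpped2 at 1.02 Mb are the only 3 past it, with changes of 1.96, 2.06 and 1.07.

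Pax6 was the only Pax gene above the filter. Pax1, Pax2, Pax3, Pax4, Pax7, Pax8 and Pax9 were at 0.340 FPKM or less in all libraries. Pax5 reached 0.651 and 0.140 FPKM in the mutant libraries against 0.0218 and 0.0139 in the wild types and was not tested.

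In the Elongator, diphthamide, Rcn1 family and peptidase lists 0 genes were called, beside 3.48% over all genes tested. In Elongator 0 of 6 subunit genes passed, with a median of -0.04: Elp2 was 58.1 and 59.1 FPKM in wild types and 59.7 and 56.6 in mutants, and Elp5 54.6 and 52.9 against 57.4 and 55.5. In diphthamide synthesis 0 of 7 passed, with a median of -0.08; Dph3 had a log2 fold change of -0.17 and Dph7 one of 0.05. In the family of Rcn1 0 of 5 passed, with a median of 0.02; Calu had a log2 fold change of 0.02 and Rcn2 one of 0.11. Immp2l, the partner subunit of Immp1l, was 4.09 and 6.55 FPKM in wild types and 4.03 and 2.49 in mutants and did not pass (adjusted p = 0.347). In limma 1 of the Elongator genes, and 0 in the lists of Dnajc24, Rcn1 and Immp1l, had an unadjusted p under 0.05, beside 19.5% of all genes tested.

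Of 15 tested genes listed as partners or regulators of Pax6, 1 rose and 1 fell, beside 3.48% called over all genes tested. The median of the 15 was 0.15. Sox2, which binds DNA jointly with PAX6, rose by 1.79 on the log2 scale (adjusted p = 0.00746). Pou3f2, a factor of upper-layer neurons, fell from 92.7 and 100.5 FPKM to 52.9 and 58.0 (log2 fold change -0.80, adjusted p = 0.0197). Sox11 was at 284 and 291 against 257 and 285 FPKM. Trim28, the corepressor bound by Paupar RNA, was at 160 and 160 FPKM in wild types and 177 and 176 in mutants, a log2 fold change of 0.15 that did not pass (adjusted p = 0.210). Sox2 lies within the annotated gene Sox2ot, so its value is uncertain.

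Among genes known to depend on Pax6 in cortex, 2 of 17 tested rose and 7 fell, beside 2.02% and 1.46% of all genes tested. The median of the 17 was -0.46. The ones that rose, Gsx2 (0.792 and 0.252 to 9.87 and 8.79 FPKM) and Dlx2 (13.8 and 9.59 to 97.5 and 103 FPKM), code for ventral factors that PAX6 is known to hold down. The ones that fell included Rlbp1, Neurog2, Neurod1, Eomes, Cdh4, Sfrp2 and Tbr1. Neurog2, a proneural gene with a known PAX6-bound enhancer, went from 27.1 and 38.2 FPKM to 2.39 and 1.19. The well-expressed genes Fabp7 (719 and 540 against 526 and 525 FPKM) and Cdk4 (265 and 292 against 312 and 328 FPKM) did not pass. The list was compiled from what is known of Pax6 mutants, with results of these data in view, so its direction is no independent evidence.

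**Figure D4:**
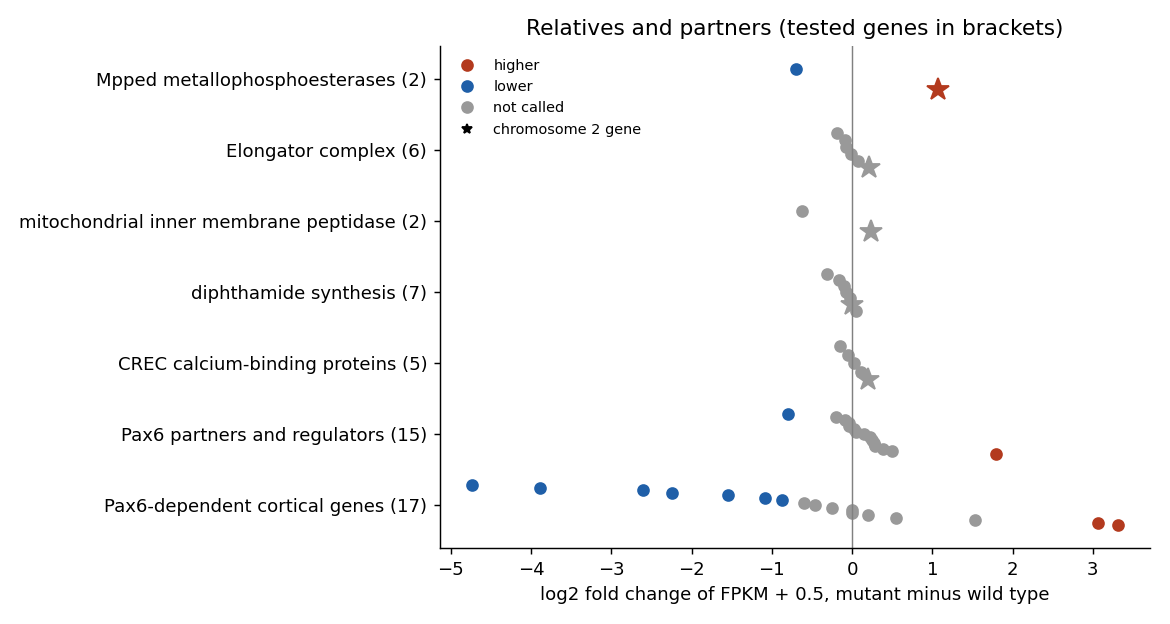
Log2 fold change of FPKM + 0.5, mutant minus wild type, of each tested gene in 7 lists of relatives and partners; stars are genes from the 8 on chromosome 2, red passed higher, blue passed lower and grey did not pass. Mpped2 (1.07) and Mpped1 (-0.69) lie on opposite sides of 0, and the Elongator, diphthamide and Rcn1 family genes lie between -0.31 and 0.21.

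The genes most like Pax6 were sought by the distance between profiles. Compared were 11589 tested genes with a mean of at least 1 FPKM in each genotype, leaving out predicted genes, clones and pseudogenes. Their log2(FPKM + 0.5) was centred on the wild-type mean, and the Euclidean distance to Pax6 was taken over the 4 libraries. Among the 5 nearest were Sox1 (distance 0.178), Sox1ot (0.183) and Sox2 (0.242). Sox1, like Sox2 a factor of neural progenitors, was at 13.5 and 11.4 FPKM in wild types and 45.7 and 49.0 in mutants. Sox1ot, a noncoding RNA gene, was at 5.87 and 4.73 against 21.2 and 25.7 FPKM. Sox1 lies within Sox1ot on the same strand, so both values are uncertain. With 4 libraries in 2 genotypes, this likeness amounts to a similar rise and a similar spread, and it carries no test.

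**Figure D5:**
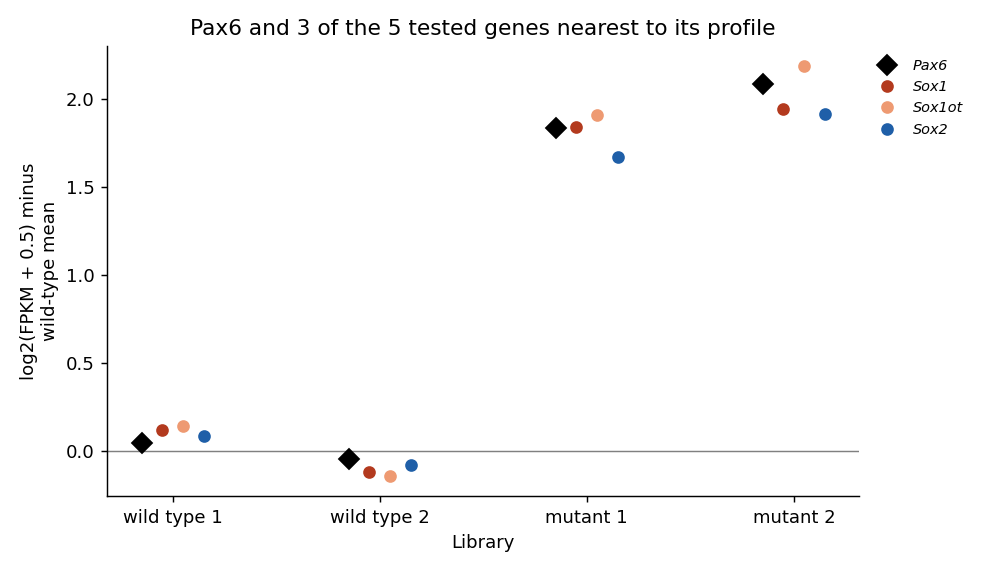
Log2(FPKM + 0.5) minus the wild-type mean in each library for Pax6 (diamonds) and 3 of the 5 genes nearest to its profile (circles), drawn side by side at each library. All 4 genes lie near 0 in the wild types and between 1.67 and 2.19 in the mutants.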

How the data were processed

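The deposited values are FPKM per gene and library, computed by the authors, per the file headers. TopHat2 2.0.9, Cufflinks 2.2.1, edgeR, GRCm38.p4 and mm10 appear, without roles, in the submitters' processing notes. How RNA was selected, whether strand was used and whether libraries were scaled further is not stated in the labels. The authors' deposited fold is a ratio of group FPKM, and the test behind their deposited p-value is not stated.

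Because 25 gene names in the table had become dates, names were taken by Ensembl identifier (22599 of 22770 matched). Coordinates came from GENCODE M21 on GRCm38. Values were tested as log2(FPKM + 0.5) with limma 3.58.1 in R 4.3.3 (lmFit, eBayes with trend, genotype only) on genes with at least 0.5 FPKM in 2 libraries. Alternatives changed the pseudocount, filter, trend, scaling, replicate term and libraries used. The fit was also tested on data simulated from the gene means and spread of these libraries, with 50 changed genes at each size. It recovered 12% of 1.5-fold, 40% of 2-fold, 82% of 4-fold and 88% of 8-fold changes. The changed genes were drawn from those with a mean log2(FPKM + 0.5) above 1, so these rates do not cover low genes such as Paupar. A gene that did not pass may therefore still differ. FPKM keeps no totals, so the worth of 1 fragment was read from the most frequent low value of FPKM times exon length. Precision rests on 2 libraries per genotype.

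The genes and lists were chosen with earlier results of these data known. Named were all 8 genes, each list's called members and up to 2 of its highest uncalled ones, called genes and nearest tested neighbours within 5 Mb, and the 5 genes nearest to Pax6 in profile; 4 genes that these rules or the marker lists take are not reported here. Others were named after their values were seen (Pax6os1, Eif3m, Arl14ep).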

Additional observations from a re-analysis of the deposited data

How the results depend on the processing

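Pax6 was higher in the mutants under all 11 alternatives (log2 fold change 1.83 to 2.09) and was called in 9; without a wild-type library it was 2.01 or 1.91 and was not called. Paupar and Mpped2 kept their direction under all 11 and were called in 4 each. With 1 library left out, 0 of the 7 flanking genes were called, and within 5 Mb of Pax6 the count was 0 to 1. Both counts were also 0 and 1 with a pseudocount of 0.1, without the filter on low values and without the trend. The number of all genes called, 536, fell to 61 without the filter, to 54 without the trend and to 7 to 59 with 1 library left out, where 1 genotype holds a lone library assumed to vary like the other. Dnajc24 lay between -0.34 and 0.34 with 1 library left out and changed sign without wild-type library 2 (0.13) and without mutant library 2 (0.34). The causes were not tested, beyond fewer libraries. With the replicate number as a block 374 genes were called, and Pax6 (1.96, adjusted p = 0.0143), Paupar (2.06, 0.0445) and Mpped2 (1.07, 0.0197) remained called; deviations of same-numbered libraries correlated at 0.0492, so the numbers were not taken as pairs. Median scaling moved a library by at most 0.00261 on the log2 scale. Depth limits Paupar and Wt1, which rest on few fragments.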

Other observations

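Within 5 Mb of Pax6, 3 tested genes outside the 8 were lower in both mutants at an unadjusted p under 0.05 in limma and did not pass adjustment. With 6 higher ones given below they make 9 of 39, close to the 19.5% of all tested genes at that level. D430041D05Rik, 1.53 Mb away, was at 26.8 and 29.3 FPKM in wild types and 20.5 and 19.2 FPKM in mutants (log2 fold change -0.49, adjusted p = 0.0631). Tcp11l1, 1.01 Mb away, was at 16.2 and 15.3 against 12.2 and 11.8 FPKM (-0.38, adjusted p = 0.122). B230118H07Rik, 4.11 Mb away, was at 15.8 and 12.8 against 9.82 and 9.68 FPKM (-0.52, adjusted p = 0.125). Another 6 were higher in both mutants at the same level: Pax6os1 and Dcdc5, given above, and Ldlrad3, Slc1a2, Lmo2 and Kif18a. Pax6os1 and Dcdc5 reached the filter only in the mutant libraries, so they could only come out higher. Slc1a2, a glutamate transporter gene of astrocytes and radial glia 3.01 Mb away, was at 3.63 and 2.77 against 4.75 and 4.61 FPKM (0.50, adjusted p = 0.236). Kif18a, a mitotic kinesin gene 3.61 Mb away, was at 5.04 and 4.11 against 6.01 and 7.84 FPKM (0.54, adjusted p = 0.219). Lmo2, a LIM-domain gene of blood and vessel cells 1.71 Mb away, was at 5.44 and 4.73 against 7.25 and 6.77 FPKM (0.43, adjusted p = 0.1997). Beside Lmo2, the summed level of 6 endothelial marker genes was 45.2 and 44.7 FPKM in wild types and 65.6 and 51.3 FPKM in mutants, and its part in that value was not tested. These genes were picked after their values were seen.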
